A study of Mus musculus with 6 samples.

Results

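Long intergenic noncoding RNAs (lincRNAs) with a clear level in cortical microglia were described here. A lincRNA was taken as a member when the deposited table gave it the biotype lincRNA and when it reached 2 CPM (reads of the gene scaled to a common library total) in each of 4 deeply sequenced libraries. This rule was met by 109 of the 5629 lincRNA genes in the table, 2391 of which had 1 or more reads in any library, and of 55487 genes in all. The members were therefore chosen by their level in controls 1 and 2 and knockouts 1 and 3, and their levels are a description.

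The libraries came from microglia, the resident macrophages of the brain, of 6 female mice aged 20 months. All 6 mice were Atg7 fl/fl. The 3 control mice carried no Cre, and the 3 knockout mice carried Cx3cr1-CreERT2, a tamoxifen-inducible recombinase at the Cx3cr1 locus that deletes the floxed Atg7 exon. Deletion of Atg7 and carriage of Cre cannot be told apart, and the labels state neither tamoxifen dosing nor how long before collection the gene was deleted. Cells were sorted as live, CD45-intermediate and CD11b-positive, and each library came from 1 mouse. Reads were not tagged with molecular identifiers, so a floor given for 0 or few reads covers counting error only. The intervals of fold changes come from the fit and include the spread between libraries, and p-values measure the spread between these 3 and 3 libraries.

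LincRNAs are long transcripts with no conserved open reading frame of protein-coding size, transcribed from their own promoters between coding genes. Some act as nuclear RNAs that organise chromatin or nuclear bodies, some act as decoys for RNA-binding proteins or microRNAs, and some are mainly the precursor of a small RNA carried in an intron or exon. Atg7 encodes the enzyme that activates LC3 and ATG12 for conjugation during autophagosome formation.

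Several members carry small RNAs or a microRNA site, and these sequences are shown because they define what the member is known for. In GENCODE M21, 9 of the 109 members (8.26%) enclosed an annotated microRNA, snoRNA or scaRNA gene on the same strand, against 1.55% of the 5501 other lincRNAs found in that annotation. Mir142hg on chromosome 11 encloses Mir142, the source of a microRNA pair of blood-derived cells. The mature sequences below are RefSeq's, on build GRCm38.p6, with the seed (bases 2 to 8) in capitals. Both arms of miR-142a lie on the plus strand, at chr11:87756867-87756887 and chr11:87756903-87756925.
miR-142a-5p: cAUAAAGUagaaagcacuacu
miR-142a-3p: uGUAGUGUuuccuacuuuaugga

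The member 6720427I07Rik on chromosome 13 encloses Mirlet7a-1, Mirlet7f-1 and Mirlet7d, whose products repress genes of proliferation and growth. The 3 5p arms share the seed GAGGUAG, and they lie on the minus strand at chr13:48538239-48538260 (let-7a), chr13:48537889-48537910 (let-7f) and chr13:48536078-48536099 (let-7d).
let-7a-5p: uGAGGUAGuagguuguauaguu
let-7f-5p: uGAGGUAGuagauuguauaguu
let-7d-5p: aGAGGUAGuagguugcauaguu

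Oip5os1, also called Cyrano, is known as the RNA that triggers decay of miR-7 through one extensively paired site. A search of the members' longest transcripts (sense strand) for the match to the seed of miR-7a-5p found 33 matches in 24 of the 109 members. The match in Oip5os1 at base 2952 of its transcript was followed, towards the 5′ end of the transcript, by a run of 13 bases complementary to the 3′ part of the microRNA. In the other matches that run was 5 bases or shorter. Capitals mark the seed in the microRNA and the paired bases in the site.
miR-7a-5p: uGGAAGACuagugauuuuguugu
Oip5os1 site: ACAACAAAATCACcaatGTCTTCCa

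Depth was uneven between the libraries. Totals were 21282335 to 39389527 reads in the 4 deep libraries, 3789208 in knockout 2 and 1254380 in control 3. The median member had 157 to 268 reads in the deep libraries, 29 in knockout 2 and 9 in control 3, where 58 members had under 10 reads and 4 had 0. In control 3, a floor of 3 reads corresponds to 2.39 CPM, above the threshold of the rule. Across the members, Pearson correlations of log2 level were 0.956 to 0.972 between the deep libraries, 0.913 to 0.938 between these and knockout 2, and 0.811 to 0.871 for pairs with control 3. The genotype check held: Atg7 had 25.1 CPM ± 1.39 (SD, n = 3) in knockouts against 62.9 CPM ± 5.46 in controls (edgeR adjusted p = 0.0147). Cx3cr1, the microglial fractalkine receptor whose locus carries the Cre, had 4710 CPM ± 791 against 10620 CPM ± 907 (edgeR adjusted p = 0.00126).

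The 2 shallow libraries also differed in content. LincRNAs outside the members took 66.6% of all lincRNA reads in control 3, 52.9% in knockout 2 and 17.2% in knockout 3, against 6.86% to 9.76% in the other 3 libraries. Reads of the Y-linked gene Uty, a histone demethylase homologue, numbered 79 in control 3 and 55 in knockout 2, and 0 to 3 in the other 4 libraries, although all 6 mice are labelled female. Other Y-linked genes had fewer reads in control 3 and knockout 2: Ddx3y had 9 and 10, Eif2s3y had 5 and 4, and Kdm5d had 3 in each. In the other 4 libraries these genes had 0 to 2 reads, apart from 8 of Eif2s3y in knockout 3. Xist, the RNA that coats the inactive X chromosome, was at a like level in all 6 libraries, as given below. The part of this content in the values of the members was not tested, and values without both shallow libraries are given for the members named for a small p.

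**Figure D1:**
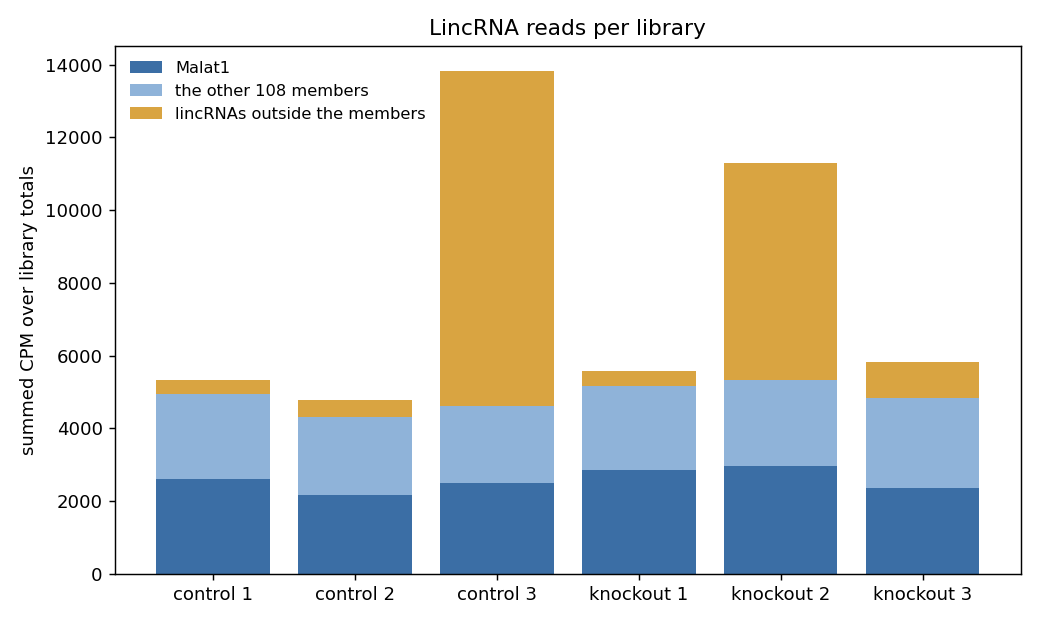
Summed CPM over library totals (vertical axis) in each library, split into Malat1, the other 108 members and the lincRNAs outside the members. The member sum lay between 4306 and 5326 CPM in every library, and the reads outside the members were highest in control 3 and knockout 2.

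The member sum was similar in all libraries. On library totals, controls 1 to 3 summed to 4955, 4306 and 4613 CPM, and knockouts 1 to 3 summed to 5167, 5326 and 4831 CPM. The range of the knockouts overlapped that of the controls, and the log2 ratio of the means was 0.14, or 0.09 with TMM scaling. TMM is edgeR's trimmed mean scaling, used for the CPM levels below unless library totals are named. Malat1 alone gave 48.8% to 55.7% of the sum.

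Malat1, an abundant RNA of nuclear speckles, had 2686, 2252 and 2465 CPM in control libraries, against 2803, 2918 and 2334 CPM with the deletion. The groups overlapped (log2 fold change, knockout over control, 0.12, SE 0.13, edgeR adjusted p = 0.999). Gm10134 followed in reads with 339 to 475 CPM, Xist with 218 to 280 CPM and Gm5086 with 82.5 to 130 CPM. 2900097C17Rik (Norad), a cytoplasmic RNA, had 109, 101 and 89.6 CPM in control libraries, against 91.2, 93.8 and 91.1 CPM with the deletion, so that the knockouts lay within the range of the controls (log2 fold change -0.12, SE 0.16). The other members among the 10 with the most reads were Gm2629, Gm10076, AU020206, Gm47283 and Gm33699. The median member had 6.41 CPM over the 6 libraries, and 37 members had under 5 CPM.

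Divided by exonic length, the order changed. Gm10134, with 381 exonic bases, had 1055 CPM per kb, Malat1 369, Gm10076 201 and Mir142hg 176. Xist, whose exons span 17946 bases, had 13.6 CPM per kb and Neat1 0.624, against a median of 3.83 over the members. Gm10134 shares 54.1% and Gm10076 99.7% of the longest transcript with other genes, as described below, so their place in this order is uncertain.

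**Figure D2:**
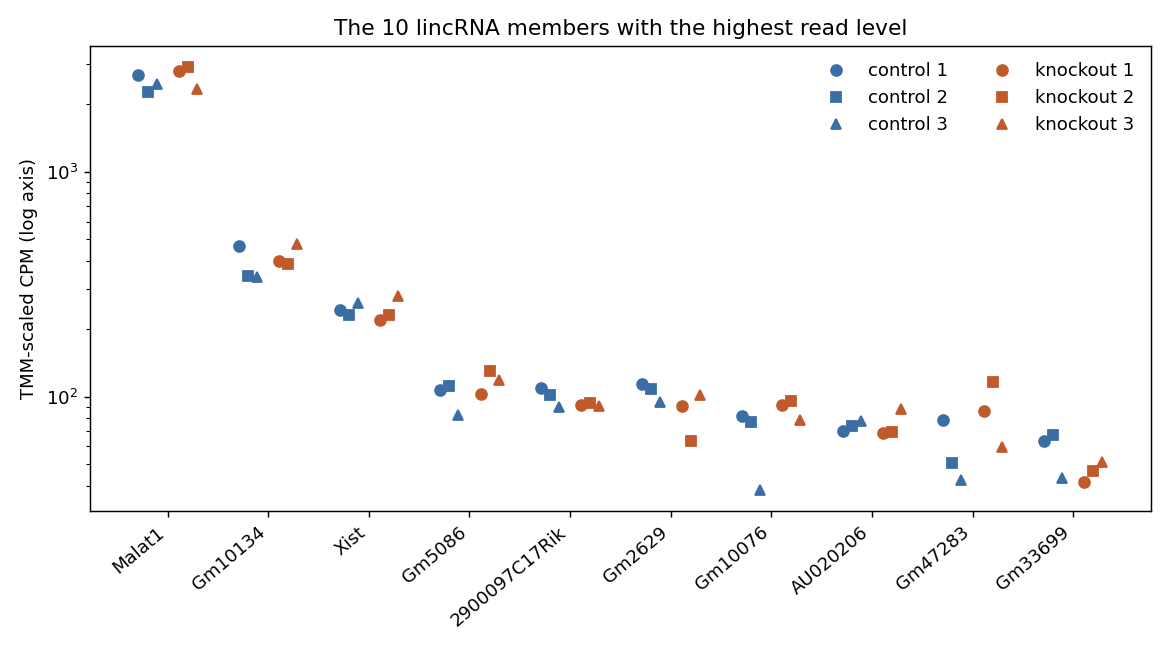
TMM-scaled CPM (vertical log axis) of the 10 members with the highest read level in each of the 3 control and 3 knockout libraries; each point is 1 library. Malat1 stood at 2252 CPM or more in every library, and in none of these 10 members did the groups separate.

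The comparison asked which of these RNAs differed between microglia with the Atg7 deletion and controls. No member was called in either direction: edgeR's quasi-likelihood test, fitted on 15787 genes with Benjamini-Hochberg adjustment, gave 0 members higher and 0 lower at an adjusted p under 0.05, and the lowest adjusted p of a member was 0.886. Over all genes tested, 0.0317% were called higher and 0.0127% lower. DESeq2 and limma voom also called 0 members. At an unadjusted p under 0.05, edgeR gave 1 member higher, AW112010, and 1 lower, Mir142hg, together 1.83% of the members. The shares over all genes were 2.34% higher and 1.98% lower, so the members' count was not above the background.

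The groups did not overlap in 5 members that were higher in the knockouts (4.59%) and 4 that were lower (3.67%). Over all genes tested these shares were 6.59% and 4.47%. The 5 were AW112010, B230317F23Rik, 6720427I07Rik, Jpx and 2700038G22Rik, and the 4 were Mir142hg, Gm13291, 8030442B05Rik and Snhg20. Log2 fold changes ranged from -0.99 (4933424M12Rik) to 0.94 (B230317F23Rik), with 62 members above 0 and 47 below. The median was 0.04, against 0.02 over all genes tested, and the median size was 0.22 against 0.26.

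How far a change can be bounded depended on the level. The 95% interval of the log2 fold change lay within 1 of 0 in 36 of the 109 members. Split at a mean of 20 CPM, a value chosen after the data were seen, this held for 22 of 25 members above and 14 of 84 below. The interval reached beyond both -1 and 1 in 19 members, so that with these libraries neither a doubling nor a halving lay outside it. Intervals within 0.5 of 0 were reached by 5 members.

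**Figure D3:**
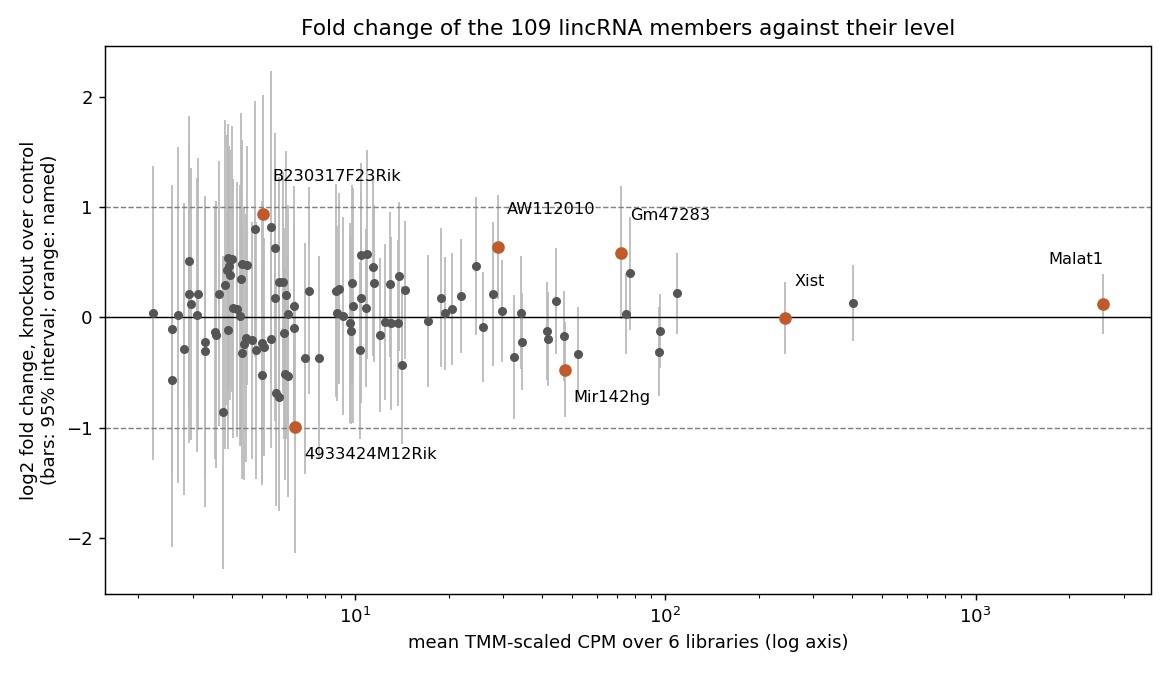
Log2 fold change of each of the 109 members (vertical axis, knockout over control, bars are 95% intervals) against its mean TMM-scaled CPM over 6 libraries (horizontal log axis); named members are orange and dashed lines mark -1 and 1. Intervals narrow from left to right, and 36 of the 109 lie between the dashed lines.

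AW112010 had the smallest p of all members. It is an RNA induced in macrophages by bacterial lipopolysaccharide, for which translation of a noncanonical reading frame has been described. Controls 1 to 3 held 21.5, 22.7 and 23.6 CPM of it and knockouts 1 to 3 held 34.7, 41.3 and 29.5 CPM, so all 3 knockouts lay above all 3 controls. The log2 fold change was 0.64 (SE 0.22, 95% interval 0.17 to 1.11, edgeR adjusted p = 0.886). It was 0.53 without both shallow libraries (edgeR adjusted p = 0.622). Without knockout 2, the library with the highest value, it was 0.50 and its unadjusted p was no longer under 0.05; under the other 14 alternatives it was.

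Mir142hg, the host of the miR-142 pair shown above, lay the other way. It had 65.0, 52.8 and 46.4 CPM in control libraries, against 34.9, 44.9 and 39.7 CPM with the deletion. The groups did not overlap, but the lowest control and the highest knockout lay close together. The log2 fold change was -0.47 (SE 0.20, 95% interval -0.90 to -0.04, edgeR adjusted p = 0.999). It was -0.67 without both shallow libraries (edgeR adjusted p = 0.325). It was -0.32 without control 1, and its unadjusted p was no longer under 0.05 there or without control 2, knockout 1 or knockout 3. The host transcript is not the mature microRNA, which these libraries do not measure.

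**Figure D4:**
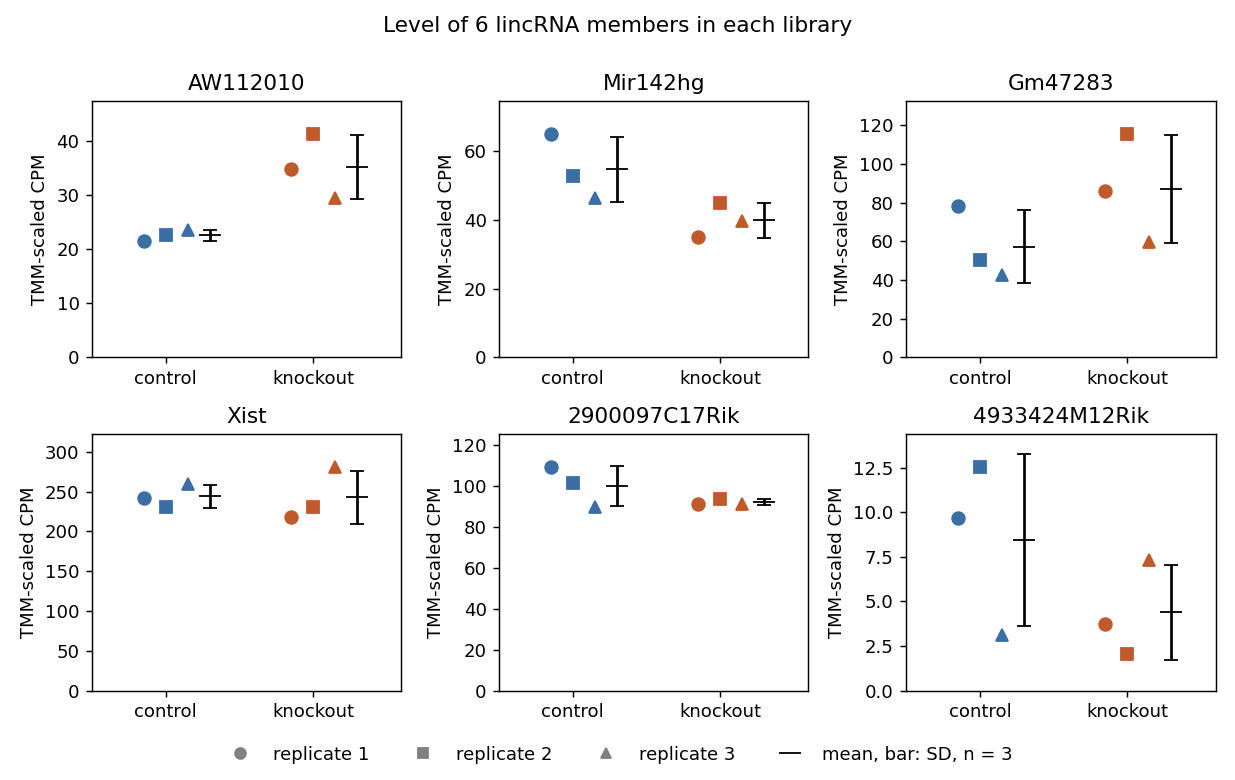
TMM-scaled CPM (vertical axes, from 0) of AW112010, Mir142hg, Gm47283, Xist, 2900097C17Rik (Norad) and 4933424M12Rik in each library (symbols: replicate number), with the mean and SD of 3. AW112010 and Mir142hg separate the groups; the other 4 overlap.

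Gm47283 and B230317F23Rik, the next members by p, had larger standard errors. Gm47283 had 78.5, 50.5 and 42.4 CPM in control libraries, against 86.1, 116 and 59.4 CPM with the deletion (log2 fold change 0.59, SE 0.27), with control 1 inside the range of the knockouts. Control 3 held its lowest value and knockout 2 its highest, and the log2 fold change was 0.17 without both. B230317F23Rik was at 2.10, 4.97 and 3.14 CPM against 5.36, 7.53 and 7.11 CPM (0.94, SE 0.50; 0.81 without both shallow libraries), with no overlap. It was among the 3 members nearest the threshold from above, and 4 reads stand behind its value in control 3.

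On the lower side, 4933424M12Rik had 9.68, 12.5 and 3.14 CPM in control libraries, against 3.76, 2.08 and 7.30 CPM with the deletion (log2 fold change -0.99, SE 0.53; -1.02 without both shallow libraries). Control 3 lay inside the range of the knockouts. Gm33699 was at 63.2, 67.2 and 43.2 CPM against 41.8, 46.5 and 51.1 CPM (-0.33, SE 0.20; -0.50 without both shallow libraries), and Gm2629 at 113, 108 and 94.3 CPM against 90.7, 63.1 and 101 CPM (-0.31, SE 0.19; -0.21 without them). The groups overlapped in both. The other members named for a small p had log2 fold changes of 0.22 to 0.80 above 0 (Gm10076, Gm37306, 6720427I07Rik, Jpx, 5031425E22Rik, 2610035D17Rik and Gm5086) and -0.36 to -0.86 below 0 (Gm13291, Gm20735, Gm48855, 1110019D14Rik, BC043934 and 8030442B05Rik), and none of them had an unadjusted edgeR p under 0.05.

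The shallow libraries held both the lowest and the highest value in 7 of the 20 members with the smallest p in either direction, and in 19 of all 109. Of the 20, 13 moved by over 1.5 times or changed sign without both of them. In Gm10076, Gm37306, 2610035D17Rik and Gm5086, control 3 was lowest and knockout 2 highest. Their log2 fold changes were 0.40, 0.47, 0.57 and 0.22 with all libraries, and 0.09, 0.10, -0.01 and 0.02 without both shallow ones. 1110019D14Rik was at 9.43 CPM in control 3, from 12 reads, and at 1.04 to 3.26 CPM in the other 5 libraries; its log2 fold change was -0.86 with all libraries and 0.08 without both shallow ones. 6720427I07Rik, the let-7 host, had 4.18, 3.98 and 1.57 CPM in control libraries, against 4.20, 10.1 and 4.51 CPM with the deletion. Its log2 fold change was 0.80 with all libraries and 0.09 without both shallow ones, and over the deep libraries it varied least of all members (SD of log2 CPM 0.07). Without both shallow libraries, 5031425E22Rik had a log2 fold change of 0.42 in place of 0.63, Gm13291 -0.38 in place of -0.72, Gm20735 -0.43 in place of -0.69, Gm48855 -0.13 in place of -0.36 and BC043934 -0.18 in place of -0.43. 8030442B05Rik was further from 0 without them (-0.58 against -0.52).

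RNAs of the X-inactivation centre were tested next. Xist had 242, 231 and 259 CPM in control libraries, against 218, 230 and 280 CPM with the deletion, with the groups overlapping and a log2 fold change of -0.01 (SE 0.15, 95% interval -0.33 to 0.32). Jpx, an activator of Xist, was at 10.9, 10.1 and 3.14 CPM in controls, with 4 reads in control 3, and at 12.9 CPM ± 1.42 (SD, n = 3) in knockouts, each of them above every control (0.56, SE 0.39; 0.26 without both shallow libraries). Ftx, another RNA of the centre and the host of miR-374b and miR-421, was at 11.3, 13.9 and 3.14 CPM against 9.09, 11.7 and 8.79 CPM (-0.05, SE 0.43; -0.50 without both shallow libraries). Neat1, the scaffold of paraspeckles, was at 9.65, 12.7 and 12.6 CPM against 12.2, 15.3 and 15.2 CPM (0.30, SE 0.31).

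SnoRNAs are guides of ribosomal RNA modification. Of the members on a list of snoRNA host genes, Snhg10 encloses only Scarna13 and Mir3069 in GENCODE M21. The members on this list had means of 3.27 CPM (Snhg10) to 9.13 CPM (Snhg6). Their log2 fold changes were 0.02 (SE 0.42) for Snhg6, 0.30 (SE 0.70) for Snhg12, -0.31 (SE 0.66) for Snhg10 and -0.51 (SE 0.45) for Snhg20. Snhg12 had 0 reads in control 3, which allows up to 2.39 CPM there on library totals. Of the 19 tested genes on the list of snoRNA hosts, most of which are not lincRNAs of the rule, 0 were called, 12 were above 0 and 7 below.

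RNAs tied to p53 did not pass the test either. Trp53cor1 (lincRNA-p21), which lies beside the cell cycle inhibitor gene Cdkn1a, had 6.02, 4.89 and 3.93 CPM in control libraries, against 6.57, 3.38 and 3.07 CPM with the deletion (log2 fold change -0.21, SE 0.51). Cdkn1a itself was at 14.6, 20.9 and 11.8 CPM against 51.0, 58.2 and 29.2 CPM, with no overlap, and it was not called (1.50, SE 0.29, edgeR adjusted p = 0.129). This neighbour was chosen after its values were seen. Log2 fold changes were 0.32 (SE 0.45) for Lncpint, a p53-induced RNA, and 0.24 (SE 0.45) for Pvt1, which lies beside Myc.

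Among RNAs known from immune cells, Morrbid had 3.87, 3.36 and 10.2 CPM in control libraries, against 7.16, 9.09 and 2.14 CPM with the deletion. It controls the lifespan of myeloid cells and represses the neighbouring death gene Bcl2l11. The groups overlapped widely (log2 fold change 0.20, SE 0.61), and Bcl2l11, also chosen after its values were seen, had 0.23 (SE 0.21). AU020206 was at 69.1 to 88.3 CPM in all 6 libraries (0.03, SE 0.17). Oip5os1, with the miR-7 site shown above, was at 53.7, 35.8 and 36.1 CPM against 56.0, 38.2 and 46.1 CPM (0.15, SE 0.22).

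Variation between the deep libraries differed widely among members. Over the deep libraries the SD of log2 CPM had a median of 0.27. It was highest in 4933424M12Rik (0.69), B230317F23Rik (0.66), Pvt1 (0.65), Morrbid (0.64) and Gm27010 (0.57), and lowest in 6720427I07Rik, 1110019D14Rik, Gm29291, Gm5086 and Gm43848 (0.07 to 0.10). The threshold of the rule is on library totals. On that scale, 4933404O12Rik, B230317F23Rik and Gm13830 were just inside with a lowest deep library of 2.01, 2.03 and 2.06 CPM. A130077B15Rik, Gm47469 and Gm20707 were just outside with 1.97, 1.95 and 1.90 CPM.

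Some members may share reads with near-identical or overlapping genes. By a limit of 50% chosen after the data were seen, 12 members shared at least that part of their longest transcript with other genes at 95% identity. The search did not separate copies elsewhere from genes annotated at the same place. Among the 12 were 2900097C17Rik, which matched Gm7292 over 51.6% of its length, and Trp53cor1, which matched AC167363.1 over 51.6%. AC167363.1 overlaps Trp53cor1 in the annotation, where 44.1% of the exonic bases of Trp53cor1 are overlapped. Gm10076 matched the ribosomal protein gene Rpl41 over 99.7% of its length; the log2 fold change was 0.40 (SE 0.24) for Gm10076 and 0.39 (SE 0.15) for Rpl41. Gm47283 and Gm21860 lie on the Y chromosome in GENCODE M21, which annotates both, and Gm10134, as protein coding. Gm47283 was at 42.4 CPM or more in all 6 libraries from female mice, and it matched Gm21887 on the X chromosome over 86.5% of its length. Gm21860 was at 5.65 to 12.2 CPM and matched Gm21748 over 100% of its length.

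Annotated structure is given beside that of the other lincRNAs as a description, since level chose the members. A single exon was annotated for 19.3% of members against 5.49% of the others, and the median exonic length was 2153 against 978 bases. A coding gene started on the opposite strand within 1000 bases for 10.1% against 3.94%. Most members have only a systematic name: 85 of the 109 symbols have the Gm or Rik form.

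Nearest coding genes of the members named for a small p were compared with them. Of 26 pairs of member and neighbour tested, over 24 neighbours, 0 were called and in 16 the neighbour had the sign of its member. Prkcq and Pfkfb3 each stand in a pair with Gm13291 and with 8030442B05Rik, and Gm21860, a neighbour of Gm47283, is itself a member. Nek1, a kinase gene of cilia and DNA repair beside B230317F23Rik, was the neighbour with an unadjusted p under 0.05, at 12.1 CPM ± 6.43 (SD, n = 3) with the deletion against 6.22 CPM ± 1.68 without it (log2 fold change 0.99, SE 0.44, edgeR adjusted p = 0.999). On the higher side, 2.34% of all genes tested had an unadjusted edgeR p under 0.05. Clcn3, which starts on the other side of B230317F23Rik, had a log2 fold change of -0.27 (SE 0.21).

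Genes for proteins that work with these RNAs were not called. Over 7 lists (paraspeckle, nuclear speckle, Xist-binding, snoRNP, nonsense-mediated decay, nuclear exosome and microRNA processing), edgeR called 0 of 150 list entries. Over all genes tested, an unadjusted edgeR p under 0.05 was reached by 2.34% on the higher and 1.98% on the lower side. Of the 150 list entries, it was reached by 1 on the higher and 1 on the lower side. These were Zcchc7, an RNA exosome adaptor (log2 fold change 0.48, SE 0.21), and Rbm14, a paraspeckle protein (-0.45, SE 0.21). The smallest p in the other lists belonged to Srrm2 (-0.38, SE 0.19), Wtap (-0.32, SE 0.16), Nufip1 (0.60, SE 0.40), Casc3 (-0.51, SE 0.31) and Ago1 (-0.38, SE 0.25).

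Markers of the sorted cells and of other cells were compared beside the members. In bulk samples, fewer cells of a type and less RNA per cell cannot be told apart. Of the 12 microglial markers, all tested, 1 was called, Cx3cr1. The log2 fold change was below 0 in 11 of them and above 0 in 1. An unadjusted edgeR p under 0.05 was reached by 4 on the lower side, Cx3cr1 among them, against 1.98% of all genes tested. Their sum, with Cx3cr1, was 71491, 68935 and 65013 CPM for controls 1 to 3, against 58240, 53284 and 56692 CPM for knockouts 1 to 3. The groups did not overlap in this sum. Cx3cr1 alone gave 11017, 9581 and 11260 CPM of it in controls 1 to 3, against 4394, 4126 and 5611 CPM in knockouts 1 to 3. With Cx3cr1 taken out of the sum, control 3 lay just below knockout 1, so the groups overlapped. P2ry12 was at 10839 to 12950 CPM in all 6 libraries. All 10 markers of border-associated macrophages had a log2 fold change above 0 and 0 were called. Against 2.34% of all genes tested on the higher side, 5 of these 10 markers reached an unadjusted edgeR p under 0.05. Their sum was 17.5, 41.5 and 87.2 CPM for controls 1 to 3, against 280, 176 and 68.1 CPM for knockouts 1 to 3, with Mgl2 (3.00, SE 0.63) and Clec10a (3.83, SE 0.91) at the smallest p. The 8 neutrophil markers summed to 45.2, 365 and 482 CPM against 1997, 655 and 143 CPM. The 10 monocyte markers summed to 10.7, 38.7 and 47.9 CPM against 149, 69.1 and 23.6 CPM. In either list 0 were called. The log2 fold change was above 0 in all 8 neutrophil markers and in 6 of the 7 monocyte markers tested. An unadjusted edgeR p under 0.05 was reached by 0 neutrophil markers and, on the higher side, by 2 monocyte markers. Of the 9 lymphocyte markers, Cd79b had 51.3 to 77.8 CPM and the other 8 were under 1 CPM in every library, with Cd3g at 0 in 5. Mean sums in controls and knockouts were 319 and 333 CPM for astrocyte markers and 230 and 227 CPM for oligodendrocyte markers. They were 66.8 and 47.9 CPM for endothelial markers and 5.99 and 5.67 CPM for neuronal markers. In these lists 0 were called, and 1 astrocyte and 2 oligodendrocyte markers had an unadjusted edgeR p under 0.05, on the higher side. AW112010 was highest in knockout 2 and next in knockout 1, the libraries in which the border-associated macrophage sum was also above every control. That sum was higher in knockout 1 than in knockout 2. In knockout 3, AW112010 was at 29.5 CPM, above every control, while the sum of 68.1 CPM lay below control 3. Across controls 1 to 3, AW112010 was at 21.5, 22.7 and 23.6 CPM, where the sum was 17.5, 41.5 and 87.2 CPM. The part of these cells in the values of AW112010 and Mir142hg was not tested.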

How the data were processed

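RNA was measured in sorted microglia of 3 control and 3 knockout mice. The values deposited by the authors are raw read counts, whole numbers with 1 column per library. The submitters' processing notes list STAR as well as Subread's featureCounts, with bcl2fastq, Salmon and the build GRCm39. They state no strand setting, so a member and an overlapping antisense gene cannot be told apart. Because identifiers matched GENCODE M21, an annotation of the preceding build, coordinates are printed only for RefSeq sequences. Of 55774 rows, 287 repeated an identifier and were dropped; 0 named no gene. Library totals ran from 1254380 to 39389527 reads.

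The test on counts was that of edgeR 4.0.16 under R 4.3.3 (default expression filter, TMM scaling, robust quasi-likelihood F-test, group as the only term) on 15787 genes with Benjamini-Hochberg adjustment. Unadjusted edgeR p-values are named as p. The SE is the size of the log2 fold change divided by the square root of F, and 95% intervals use the test's degrees of freedom. SDs of log2 CPM used a pseudocount of 0.5 CPM. Shared sequence was found with blastn 2.17.0 (95% identity, at least 50 bases). The steps were tested on simulated data. Alternatives were other scalings, filters and tools (DESeq2 1.42.0, limma 3.58.1 voom), a replicate block, each library left out, both shallow libraries left out, other thresholds of the member rule and, added after seeing the data, members without shared sequence.

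The members and all lists were chosen with earlier results of these data known. Genes were named by a rule: Atg7 and Cx3cr1; the 10 members with the highest level; the 10 members with the smallest p in each direction; up to 6 members of each role list by p; 3 lincRNAs on each side of the threshold; up to 4 called genes, or 2 with the smallest p, of each partner or cell type list; tested nearest coding neighbours; and the 5 members with the largest and smallest SD. Not all genes the rule names are printed.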

Additional observations from a re-analysis of the deposited data

How the results depend on the processing

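Under all 15 alternatives of the fit, with the rule at 1 or 5 CPM, and without the members that share sequence, 0 members were called in either direction. The counts at an unadjusted p under 0.05 moved. Members higher numbered 1 with all libraries, 2 on library totals, with no filter, with the stricter filter, with DESeq2 and with voom, and 0 to 3 with 1 library left out. Members lower numbered 1, 2 with no filter or with the rule at 1 CPM, 3 with voom or without both shallow libraries, and 0 to 3 with 1 library left out. The rule at 5 CPM gave 55 members and at 1 CPM 163. Called genes of the partner and marker lists numbered 1, and 6 with no filter, 6 with DESeq2 and 3 with the replicate block. The median log2 fold change of the members lay between -0.00357 (without knockout 3) and 0.10 (library totals), and the log2 ratio of summed CPM between 0.09 and 0.20.

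With the replicate block, an unadjusted p under 0.05 was reached by 4 members on the higher side and 1 on the lower, and 0 were called; over all genes it called 16 higher and 9 lower. Deviations of same-numbered libraries had correlations of 0.33, -0.30 and -0.13. The highest correlation was that of the shallow libraries, control 3 and knockout 2 (0.38). Each group holds 1 shallow library, under unlike numbers, so these values cannot tell whether same-numbered libraries were paired.

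Of 540 log2 fold changes of 36 named members under the alternatives, 29 in 11 members changed sign, and 0 were called. The cause was not tested. Without both shallow libraries, log2 fold changes that kept their sign but moved by over 1.5 times were, beside those given with the results, 0.05 for Malat1 (0.12 with all), -0.21 for 2900097C17Rik (-0.12), 0.12 for AU020206 (0.03), 0.54 for Pvt1 (0.24), and 0.37 for Morrbid (0.20). Of members named for their spread or threshold, outside those 36, 4933404O12Rik had 0.31 (0.51 with all) there, and Gm27010, Gm29291 and Gm43848 changed sign (0.51, -0.08 and -0.02). On library totals these were Xist 0.0426 and Ftx 0.0200, with voom Xist 0.0202 and Snhg6 -0.0698, with no filter Snhg6 -0.0154, and with the replicate block Ftx 0.145. Without both shallow libraries they were Xist 0.0693, 2610035D17Rik -0.0115, 1110019D14Rik 0.0759, Snhg10 0.0392, Snhg12 -0.363 and Snhg6 -0.269. With 1 library left out in turn, Xist ranged from -0.147 to 0.0460, Ftx from -0.380 to 0.313, Snhg6 from -0.305 to 0.374, Snhg10 from -0.682 to 0.0992, Snhg12 from -0.107 to 1.13, Morrbid from -0.187 to 0.710, Pvt1 from -0.386 to 0.497, AU020206 from -0.118 to 0.0764 and Oip5os1 from -0.0193 to 0.389.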

Other observations

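LincRNAs outside the members held most of the lincRNA reads of the 2 shallow libraries, and single genes led them. Gm13652 had 7970 reads in control 3 and 16114 in knockout 2, or 6263 and 4186 CPM, against 0.0526 and 0.645 CPM in controls 1 and 2, 0.178 CPM in knockout 1 and 56.0 CPM in knockout 3. In both it stood above Malat1. AC154200.1 had 617 CPM in control 3 and 326 CPM in knockout 2, and 0.684 to 1.44 CPM in the other 4 libraries. Gm15328 had 261 CPM in control 3, 117 in knockout 2 and 125 in knockout 3, and 0 reads in controls 1 and 2. These genes were chosen after their values were seen.

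Genes under 1 CPM in each of controls 1 and 2 and knockout 1, a reference chosen after the data were seen, took 3.69% of all reads in control 3, 2.06% in knockout 2 and 0.680% in knockout 3, against 0.181% to 0.223% in the reference libraries.

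A530064D06Rik, a gene on the list of immune RNAs that the table annotates as protein coding, had 16.6, 19.2 and 25.2 CPM in knockouts 1 to 3, against 1.31, 4.03 and 4.71 CPM for controls 1 to 3, with no overlap. Its log2 fold change was 2.76 (SE 0.46, edgeR adjusted p = 0.0535), and it was not called.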
